A study of Mus musculus with 28 samples.

Results

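The enzymes described are the cytochrome P450s, UDP-glucuronosyltransferases, glutathione S-transferases and sulfotransferases that mouse small-intestinal organoids expressed, and how their transcripts responded to single ligands of the Tgfb superfamily. Genes were taken by name from the table of BMP-treated organoids (Cyp, Ugt, Gst or Sult followed by a family number or letter). The names fitted 140 genes. Cyp51, Cyp26b1 and pseudogenes, 10 genes in all, were left out, and 53 genes had a mean under 10 normalized counts over the 20 samples. The other 77 of the 29413 genes in the table are the members. They are 38 P450s, 12 Ugt, 21 Gst and 6 Sult genes. The members just above the limit were Ugt2b38 at a mean of 10.5, Cyp3a41a at 10.7 and Ugt1a2 at 11.98 normalized counts. Just below it lay Sult5a1 at 9.68, Cyp4x1 at 9.46 and Ugt1a8 at 8.71.

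The organoids were epithelial cultures grown from intestinal crypts of wild-type C57BL/6 mice. They spent 48 h in ENR medium without Bmp or Tgfb and then, in the treated groups, received 1 recombinant ligand at 500 ng/ml for 24 h. The first table held 4 untreated controls (replicates II, III, IV and VI), 4 BMP2 samples (II, III, IV and VI), 3 BMP3 samples (II, III and IV) and 3 samples each of BMP4, BMP5 and BMP7 (II, III and VI). A second table held 3 untreated and 3 Tgfb samples (I, II and III in each), and another table held 1 sample of freshly isolated mesenchymal cells from the duodenum of PdgfraH2BeGFP mice and 1 of such cells after immortalisation with the HPV16 E6 gene and sorting for high eGFP. The title sets the question as which members of the superfamily govern the last steps of enterocyte maturation at the tip of the villus. Nothing in the labels says that replicates came from separate animals or cultures, so p-values measure the spread between these samples, which may be technical. Values per sample are listed in the order of these replicate numbers. Most genes given by value follow a rule of size and non-overlap stated with the methods. Cyp2c38, Cyp2c68, Cyp2w1, Cyp3a41a, Cyp4f40, Cyp11a1, Gstm2, Gstm4 and Gstm5 lie outside it and were chosen after their values were seen.

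As background, these families handle drugs, food toxins, bile pigments, steroids and fatty acids in 2 phases. P450s, which are heme proteins that take electrons from the reductase Por, oxidise a substrate. Ugt enzymes then attach glucuronic acid, Sult enzymes a sulfate group and Gst enzymes glutathione, and efflux pumps move the products out of the cell. In the small intestine such enzymes are most abundant in the absorptive enterocytes of the villus, where they act on swallowed compounds before the blood carries them to the liver. Receptors such as Nr1i2 (the pregnane X receptor), Nr1i3 (the constitutive androstane receptor), Ahr and Ppara set the transcription of many of these genes.

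Several members are near-identical copies, and their sequences show how far their reads can be told apart. The Ugt1a genes share their last exons: each transcript has a first exon of its own and a common end. The first 60 coding bases, from the GENCODE M21 transcripts, show how 4 members differ in the exon that is their own.
Ugt1a1: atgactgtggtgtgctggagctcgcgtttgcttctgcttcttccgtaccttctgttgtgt
Ugt1a6a: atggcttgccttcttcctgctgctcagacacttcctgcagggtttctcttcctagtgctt
Ugt1a7c: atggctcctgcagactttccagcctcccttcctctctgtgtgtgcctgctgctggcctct
Ugt1a9: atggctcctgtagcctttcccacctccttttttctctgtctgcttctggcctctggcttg
The pairs Gstp1 and Gstp2 (12 differences over 633 coding bases, 98.1% identical) and Cyp2c65 and Cyp2c66 (54 over 1473, 96.3%) are shown by their first 90 coding bases, with capitals where the pair differs.
Gstp1: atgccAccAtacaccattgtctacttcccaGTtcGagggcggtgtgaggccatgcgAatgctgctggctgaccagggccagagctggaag
Gstp2: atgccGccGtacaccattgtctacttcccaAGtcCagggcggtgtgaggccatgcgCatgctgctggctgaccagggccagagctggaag
Cyp2c65: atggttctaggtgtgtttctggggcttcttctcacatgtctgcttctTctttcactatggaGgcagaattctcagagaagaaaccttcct
Cyp2c66: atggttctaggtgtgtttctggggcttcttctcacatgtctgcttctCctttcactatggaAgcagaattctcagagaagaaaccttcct
The libraries were read as single reads of 75 bases. In 24 of the 77 members at least 10% of all 75-base windows of the transcripts also occur in another gene, so the split of reads between copies depends on the authors' estimate. The share was 95.3% for Cyp3a41a, 84.7% for Gsta1, 57.7% for Ugt1a1 and 50.1% for Gstp2, against 21.6% for Gstm3 and 11.4% for Cyp2c65. Sums over such copies are given beside the single genes where they bear on a result.

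Libraries of the BMP table held between 21355508 and 24781378 recovered reads, and a single read corresponded to 0.826 to 1.28 normalized counts. The authors' scaling left column sums of 19885612 ± 702378 normalized counts in controls, 27350549 ± 1181883 with BMP2 (SD, n = 4 each), as against 26232395 ± 706629 with BMP4 (SD, n = 3). After rescaling to a common total the all-gene median (log2) was -0.48 in place of -0.03 in the BMP2 comparison and -0.35 in place of 0.04 in the BMP4 comparison. Markers of the labelled tissue were detected: no marker of the lists for enterocytes, stem cells, Paneth cells and goblet cells was at 0 throughout a group of organoids. The same held for the 3 listed hepatocyte markers, so detection alone does not identify the tissue. Depth in the Tgfb and mesenchymal tables is unknown, because their values were scaled transcript abundances (TPM).

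Per length of transcript, glutathione S-transferases led the members in untreated organoids of the second table. Gsta1 was highest at 892 ± 180 TPM, a value that rests on how reads shared with its copies were split, and the sum over Gsta1 and its copies was 1121 ± 229 TPM. Next was Gstp1 at 588 ± 31.6 TPM (SD, n = 3 each). Gstm1 (387 TPM), Gsto1 (377 TPM) and Gstm3 (338 TPM) followed, and the samples of these 3 overlapped from each gene to the next in order. The highest Ugt was Ugt2b34 at 209 ± 18.8 TPM, and the highest P450 was Cyp4f14 at 182 ± 20.3 TPM (SD, n = 3 each), whose samples overlapped with those of Ugt2b34. Cyp2c29 (164 TPM), Cyp2b10 (162 TPM) and Cyp2c66 (145 TPM) stood next among P450s. Cyp2c29 and Cyp2b10 overlapped with their neighbours in the order, and Cyp2c66 did not overlap with the gene after it. Sult1d1 at 70.7 TPM and Sult1b1 at 62.1 TPM led the sulfotransferases, with samples of 64.6 to 77.7 and 56.4 to 72.4 TPM.

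**Figure D1:**
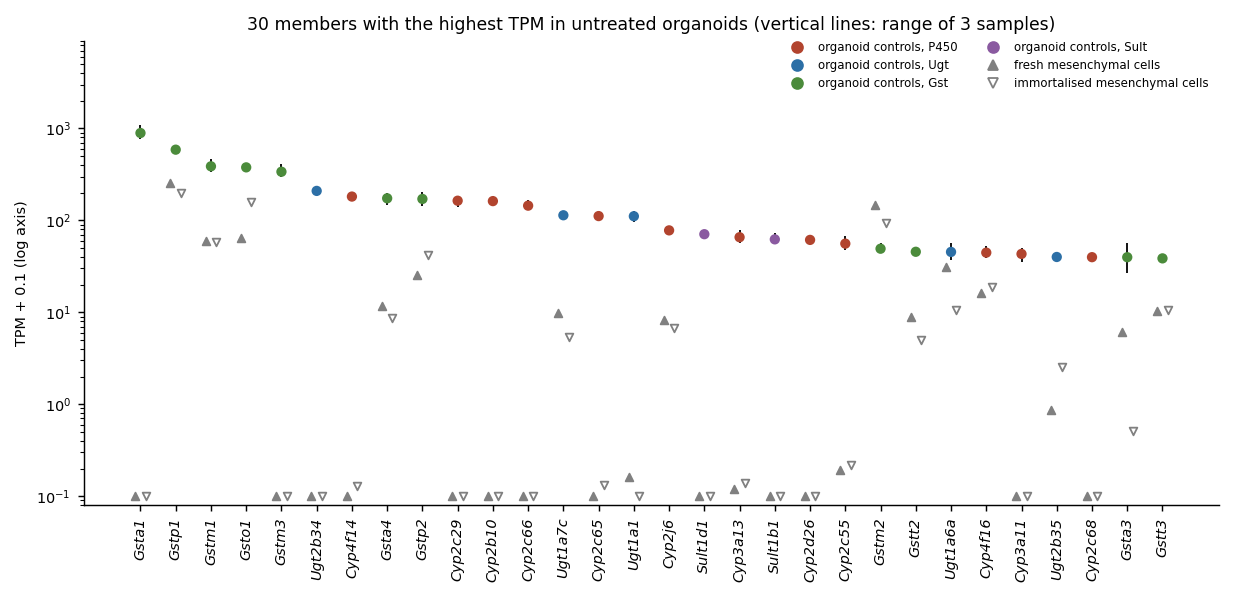
Levels in TPM + 0.1 (log axis) of the 30 members that were highest in untreated organoids of the Tgfb table, with the mean and range of the 3 untreated samples and both mesenchymal samples. Gsta1 is highest in organoids at 892 TPM and listed at 0 in both mesenchymal samples, whereas Gstp1 and Gstm2 stand at 94.2 TPM or more in both mesenchymal samples.

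With BMP2, most members were lower than in controls, and with BMP4 most were higher. Summed over the 77 members, expression was 99760, 97960, 152400 and 158300 normalized counts in the controls, 48760, 47880, 57240 and 65570 with BMP2, and 416200, 417100 and 445300 with BMP4. The BMP2 samples all lay below the controls and the BMP4 samples all above. Against the control with the same replicate number, the sum was 0.376 to 0.489 times with BMP2 and 2.81 to 4.26 times with BMP4. BMP5 (70320, 53870 and 91390) and BMP7 (58700, 65820 and 98270) were lower than the same-numbered control at 0.55 to 0.705 times and 0.588 to 0.672 times, and the highest BMP7 sample lay just above the lowest control. BMP3 was at 0.97 to 0.999 times. With Tgfb the sum was 2278, 2369 and 3073 TPM against 5019, 5139 and 6186 TPM in its own controls. In bulk RNA, fewer cells of a type and less RNA per cell cannot be told apart.

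By limma with adjustment over all genes, BMP2 had 11 members higher and 55 lower of 77, where 36.8% and 38.4% of all genes tested passed in those directions. The median log2 difference of the members was -1.91, and that of all genes -0.03. BMP4 had 46 members higher and 5 lower, against 33.7% and 31.4% of all genes, with a member median of 1.24 and 0.04 over all genes. After rescaling to a common total, the BMP4 split was 38 higher and 10 lower, so the share of higher calls fell from 90.2% to 79.2%, where 21% of all genes were then higher and 46.5% lower. The BMP2 split was then 6 higher and 62 lower, against 24.6% and 52.8% of all genes. BMP5 had 4 higher and 34 lower members (16.5% and 9.87% of all genes), and BMP7 had 4 higher and 37 lower (19.2% and 13.2%). Tgfb had 10 higher and 44 lower of the 64 members that passed the filter of its table, where 27.4% and 29.3% of all genes passed. BMP3 had 0 members called, as it had 0% of all genes. Of the members, 6 had a mean under 10 in the controls and entered through a treated group: Cyp1b1, Cyp3a41a, Cyp4a10, Cyp4a29, Cyp11a1 and Cyp21a1. Such genes had to be higher in some treated group, and the counts include them. These counts are a description of the families.

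**Figure D2:**
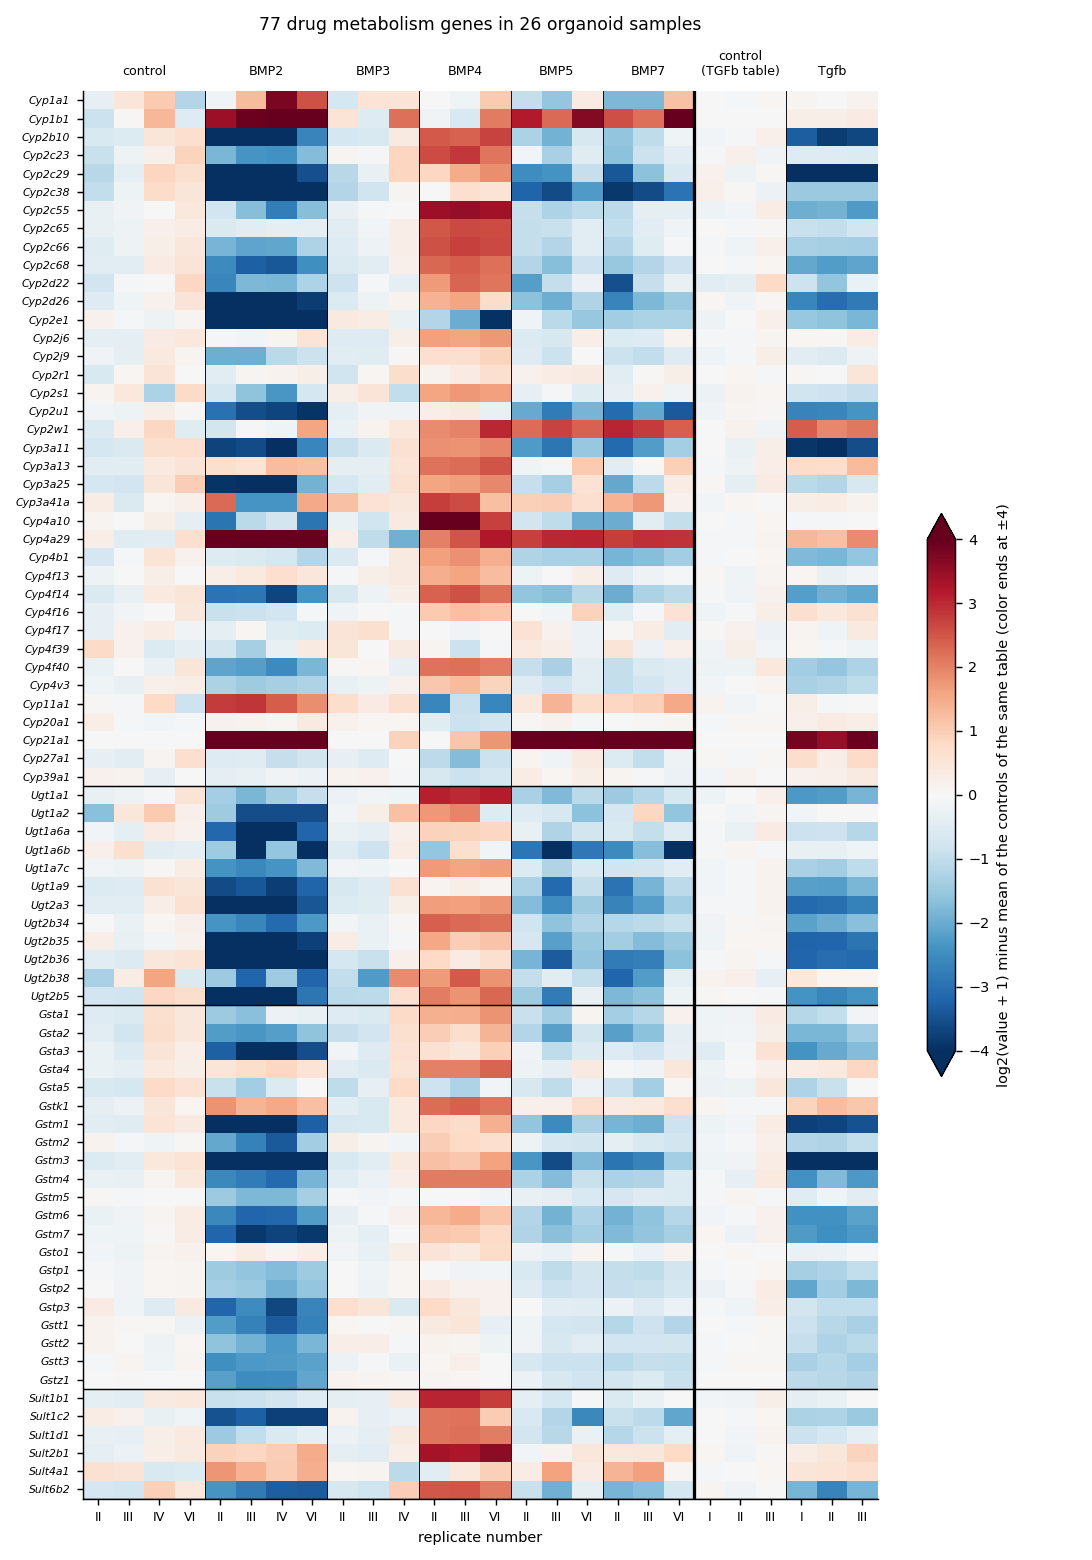
Log2(value + 1) of the 77 members in the 26 organoid samples, minus the mean of the controls of the same table, on a color scale from -4 to 4, with rows grouped by enzyme class. Most rows are low in the BMP2, BMP5, BMP7 and Tgfb columns and high in the BMP4 columns, and a few rows, among them Cyp21a1 and Cyp4a29, are high with BMP2.

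All 4 classes shared this pattern in their summed level. The Ugt sum was 0.141% ± 0.0231 of all normalized counts in controls, 0.0168% ± 0.00336 with BMP2 (SD, n = 4 each), and reached 0.43% ± 0.0241 with BMP4 (SD, n = 3). The P450 sum was 0.206% in controls, 0.081% with BMP2 and 0.668% with BMP4, and the Gst sum was 0.266%, 0.094% and 0.425%. Sult genes stood at 0.0256%, 0.00854% and 0.102%. For each class the highest BMP2 sample lay below the lowest control, and the lowest BMP4 sample lay above the highest control. These sums are given with no test, since the members were chosen with earlier results known.

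**Figure D3:**
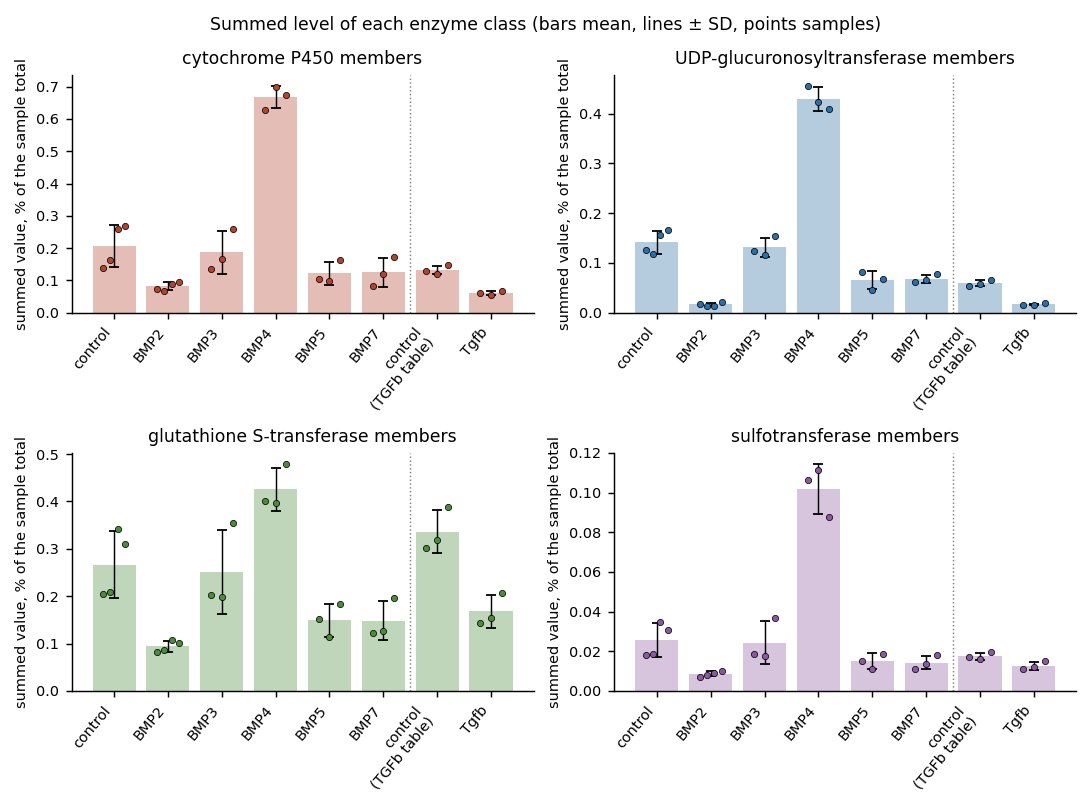
Summed level of each enzyme class as a percent of the sample's total, with bars for the group mean, error bars for the SD and points for single samples. In each of the 4 panels the BMP4 bar is highest and the BMP2, BMP5, BMP7 and Tgfb bars lie below that of their controls.

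Among the P450s of families 1 to 3, which hold most drug-oxidising enzymes, 16 of 23 were lower and 3 higher with BMP2, while 16 were higher and 1 lower with BMP4. Cyp2b10 (ENSMUSG00000030483), the classical target gene of Nr1i3, was at 2660, 2740, 5590 and 6450 normalized counts in controls. It was at 194, 226, 91.8 and 643 with BMP2 and at 22200, 20800 and 26300 with BMP4. No BMP2 sample reached the lowest control, and no BMP4 sample came down to the highest. The log2 difference from control was -4.15 ± 0.47 (SE) with BMP2 (limma adjusted p = 1.86e-07) and 2.51 ± 0.51 with BMP4 (adjusted p = 0.000258).

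Cyp3a11 (ENSMUSG00000056035), a main drug-oxidising P450 of the mouse and a target of Nr1i2, was at 1050, 1150, 2700 and 2730 in controls. With BMP2 it was at 132, 144, 104 and 280, which is 11.6-fold lower by the means (log2 difference -3.48 ± 0.43, limma adjusted p = 6.01e-07). With BMP4 it was at 6080, 6060 and 6690, which is 3.29-fold higher (1.86 ± 0.46, adjusted p = 0.00175). The control samples II and III lay well below IV and VI, a spread that Cyp2b10, Cyp2c29 and Cyp3a25 showed too. Cyp3a25 was 10.9-fold lower with BMP2 (limma adjusted p = 1.66e-05), and 22.8-fold without BMP2 VI. Its levels were 361, 342, 809 and 1150 in controls and 1750, 1840 and 2210 with BMP4, where the call (limma adjusted p = 0.0255) was lost without control II (0.0694), control III (0.0731), BMP4 III (0.053) or BMP4 VI (0.0699), and also under quantile normalization (0.0502) and with the same total (0.075). Cyp3a13, the other intestinal Cyp3a gene, went the other way with BMP2: it was at 3120, 3110, 5630 and 6150 in controls and at 6620, 6310, 10100 and 9700 with BMP2. That difference of 0.90 (limma adjusted p = 0.0191) was not called under quantile normalization (0.34, limma adjusted p = 0.389) or rescaling to the same total (0.44, limma adjusted p = 0.227). It was also lost without control II (limma adjusted p = 0.0648), control III (0.0656), BMP2 IV (0.0566) or BMP2 VI (0.0514). With BMP4, at 19100, 20100 and 24300, Cyp3a13 rose by 2.30 ± 0.36 (adjusted p = 1.56e-05).

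The Cyp2c genes oxidise arachidonic acid and many drugs. Cyp2c55 (ENSMUSG00000025002) was at 1230, 1370, 1540 and 2020 in controls, at 887, 462, 224 and 466 with BMP2 and at 16200, 17400 and 15700 with BMP4, a 10.7-fold rise with BMP4 by the means (log2 3.44 ± 0.30, limma adjusted p = 1.51e-08). The 3 groups did not overlap. Cyp2c66 was 3.54-fold lower with BMP2 and 6.06-fold higher with BMP4 (limma adjusted p = 2.54e-06 and 1.17e-07). Its near copy Cyp2c65 was 5.91-fold higher with BMP4 (limma adjusted p = 2.31e-09), but only 1.37-fold lower with BMP2, at 2300 to 2670 against 2800 to 4250 in controls, and that call (limma adjusted p = 0.0336) was lost without control IV (0.0949), control VI (0.117), BMP2 II (0.0822) or BMP2 III (0.0542). The sum of both copies was 7092 ± 1737 in controls, 3562 ± 395 with BMP2 (SD, n = 4 each), and reached 42430 ± 2470 with BMP4 (SD, n = 3). Cyp2c68 was 7.64-fold lower with BMP2 and 4.75-fold higher with BMP4. Cyp2c29, at 1930, 3190, 7480 and 6450 in controls and 104, 139, 168 and 362 with BMP2, fell by 4.58 on the log2 scale (limma adjusted p = 9.19e-07). Its BMP4 samples (7300, 11600 and 15100) overlapped with the controls. That difference did not pass, but with replicate numbers as blocks it was 1.56 with an adjusted p of 0.000118.

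Cyp2d26 was 20.3-fold lower with BMP2 and 2.36-fold higher with BMP4 (limma adjusted p = 6.66e-11 and 0.00117). Cyp2u1, a fatty acid hydroxylase, was 11.9-fold lower with BMP2, at 12.7 to 25 against 177 to 246, and overlapped with controls in BMP4 at 165 to 264. Cyp2s1 was at 1260, 1550, 484 and 1970 in controls and at 712, 386, 234 and 721 with BMP2, and these groups overlapped, although the difference passed (-1.33, limma adjusted p = 0.00575). Cyp2j6, an epoxygenase of arachidonic acid, was at 3330 to 5790 in controls and 4000 to 6300 with BMP2, and did not pass there. It was 3.04-fold higher with BMP4, at 12900 to 14500. Cyp2e1, which oxidises ethanol and small solvents, went down with both ligands: it was at 121, 100, 91.4 and 116 in controls, 4.54, 0, 1.18 and 3.8 with BMP2 and 46.2, 26.2 and 5.98 with BMP4 (limma adjusted p = 3.23e-08 and 0.00122).

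**Figure D4:**
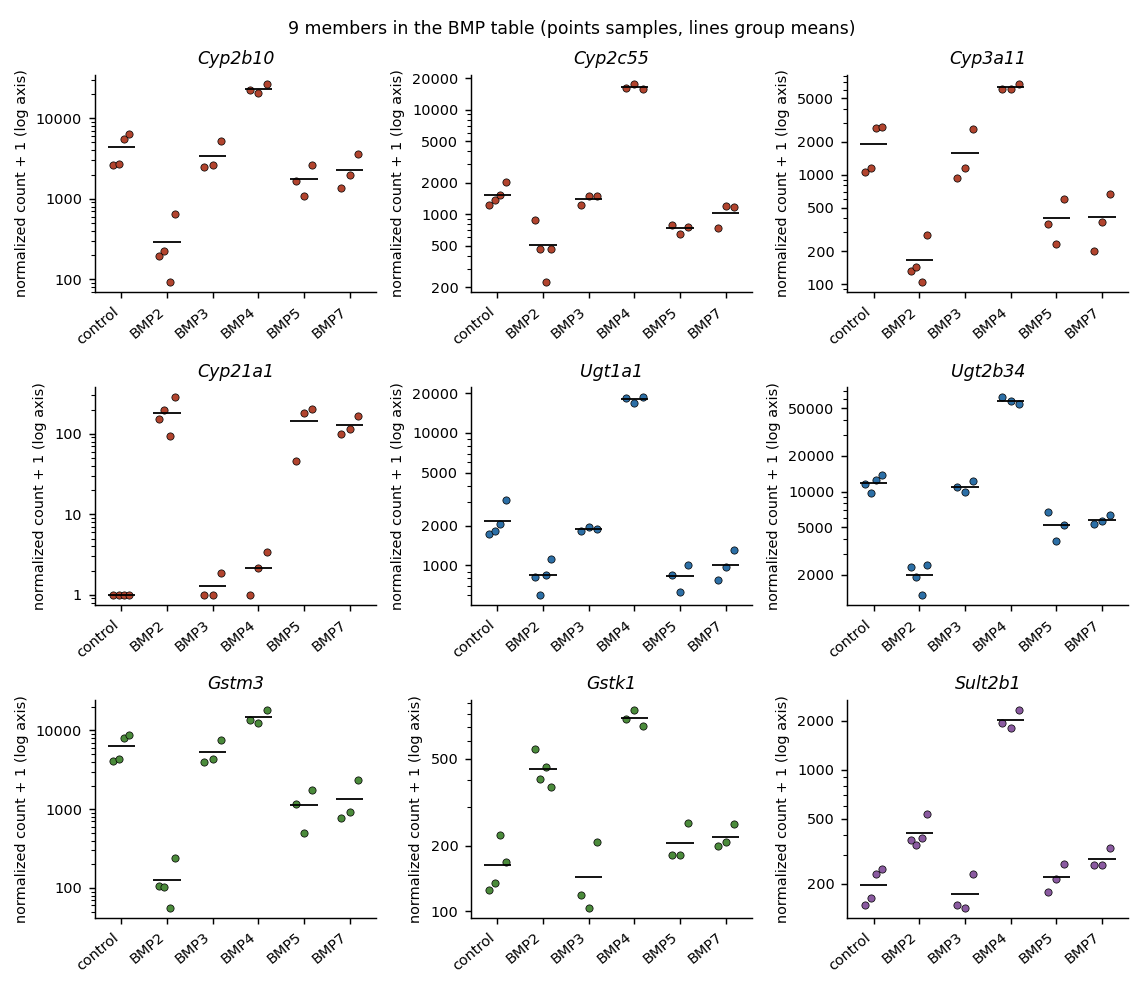
Normalized count + 1 (log axis) of 9 members in each sample of the BMP table, with the group means. Cyp2b10, Cyp2c55, Cyp3a11, Ugt1a1, Ugt2b34 and Gstm3 are low with BMP2 and high with BMP4, Cyp21a1 is at 0 in the 4 controls, and Gstk1 and Sult2b1 are higher than control with both ligands.

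Of the 10 Cyp4 genes, which hydroxylate fatty acids and leukotrienes at the chain end, 6 were lower and 2 higher with BMP2, and 8 were higher with BMP4. Cyp4f14 was at 2470, 2970, 4740 and 5120 in controls, 469, 497, 287 and 702 with BMP2 and 18800, 21400 and 16800 with BMP4. No samples overlapped, and the log2 differences were -2.97 ± 0.28 and 2.37 ± 0.30 (limma adjusted p = 1.54e-08 and 1.6e-06). Cyp4f40 was 4.58-fold lower with BMP2 and 4.30-fold higher with BMP4, and Cyp4v3 2.52-fold lower and 2.10-fold higher. Rescaling to the same total lowered the Cyp4v3 difference with BMP4 from 1.08 to 0.68. Cyp4b1 was 3.00-fold higher with BMP4 (limma adjusted p = 1.24e-05), and its 103 to 165 with BMP2 overlapped with 147 to 343 in controls.

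All 12 Ugt genes were lower with BMP2, with a median log2 difference of -3.31, and 7 of the 12 were higher with BMP4. The BMP2 call of Ugt2b38, near the lower limit of detection, was lost without control IV (limma adjusted p = 0.0651) and under quantile normalization (0.0557). Ugt2b34 (ENSMUSG00000029260), the most abundant of them, was at 11600, 9810, 12400 and 13700 in controls, 2320, 1920, 1360 and 2410 with BMP2 and 61800, 57200 and 54300 with BMP4. The 3 groups stood far apart, at 5.93-fold below and 4.86-fold above control (limma adjusted p = 1.17e-10 and 6.49e-09). Ugt2b36 had the lowest log2 difference of the 12: 322, 300, 601 and 637 in controls became 9.08, 1.28, 2.35 and 16.5 with BMP2 (-6.18 ± 0.53, limma adjusted p = 4.5e-09), where BMP2 VI was highest. With BMP4 it was at 764, 551 and 680, which overlapped with controls. Ugt2b35 was 22.4-fold lower with BMP2 and 2.33-fold higher with BMP4 (0.80 in place of 1.22 on the log2 scale under quantile normalization). Ugt2a3 was 25.5-fold lower and 3.07-fold higher, and Ugt2b5 20.54-fold lower and 3.61-fold higher. Without BMP2 VI the folds with BMP2 were 42.8 for Ugt2a3 and 38.4 for Ugt2b5. The sum over Ugt2b5 and its near copy Ugt2b38 was 1194 ± 680 in controls, 58.8 ± 53 with BMP2 (SD, n = 4 each), and reached 4309 ± 722 with BMP4 (SD, n = 3).

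Ugt1a1 (ENSMUSG00000089960), the enzyme that conjugates bilirubin, was at 1720, 1820, 2050 and 3120 in controls, 823, 600, 850 and 1120 with BMP2 and 18300, 16900 and 18600 with BMP4. Its fall with BMP2 was 2.57-fold and its rise with BMP4 8.24-fold (limma adjusted p = 7.02e-06 and 1.36e-09). Ugt1a6a, which conjugates small phenols, was 12.5-fold lower with BMP2 (2280 to 3680 against 147 to 333) and 1.81-fold higher with BMP4, a call that was lost with the same total (0.48, limma adjusted p = 0.133) and under quantile normalization (0.44, adjusted p = 0.162). Ugt1a7c was 4.75-fold lower and 3.12-fold higher, and Ugt1a9 12.3-fold lower with BMP2 while its BMP4 samples at 356 to 395 lay within the control range of 226 to 506. Differences between the Ugt1a genes were not tested. Summed over the 8 Ugt1a genes of the table, so that the split of shared reads plays no part, the level was 11780 ± 2217 in controls, 2430 ± 624 with BMP2 (SD, n = 4 each), and reached 43130 ± 1614 with BMP4 (SD, n = 3).

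Of the 21 Gst genes, 16 were lower and 2 higher with BMP2, and 10 were higher and 0 lower with BMP4. The 7 mu class genes were all lower with BMP2. Gstm3 was at 4060, 4380, 8020 and 8760 in controls and 104, 102, 55.3 and 240 with BMP2, 50.3-fold lower by the means (-5.76 ± 0.45, limma adjusted p = 9.75e-10). Gstm1, which shares reads with it, was at 6120, 5870, 12200 and 10700 in controls and 302, 306, 267 and 854 with BMP2. With BMP4 the levels were 13400, 12600 and 18100 for Gstm3 and 14600, 13800 and 22200 for Gstm1. Both stood above their controls, but the BMP4 calls of these copies (limma adjusted p = 0.0253 and 0.0443) were lost under quantile normalization (0.259 and 0.426), with the same total (0.106 and 0.209) and without BMP4 VI (0.0876 and 0.166), control II (0.0709 and 0.109) or control III (0.066 and 0.116). For Gstm1 they were lost as well without BMP4 II (0.0632) or BMP4 III (0.0538), with no filter on low values (0.0634), and by edgeR (0.0878) and DESeq2 (0.0833). The sum of Gstm1 and Gstm3 was 15030 ± 5566 in controls, 558 ± 360 with BMP2 (SD, n = 4 each), and stood at 31570 ± 7605 with BMP4 (SD, n = 3). Gstm4 (5.88-fold lower with BMP2, 4.15-fold higher with BMP4), Gstm6 (6.79-fold and 2.45-fold) and Gstm7 (13.0-fold and 1.94-fold) moved both ways with adjusted p-values under 0.05 in each of the alternatives. Gstm5 was at 591 to 638 in controls, 175 to 243 with BMP2 and 576 to 608 with BMP4.

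Genes of the pi, theta and zeta classes fell with BMP2 and, on the authors' scaling, none of the 7 passed with BMP4. Gstp1 was at 5330, 4980, 5850 and 5920 in controls, 2060, 1860, 1640 and 2040 with BMP2 and 5400, 4960 and 5140 with BMP4. All BMP2 samples lay far below the controls, and the BMP4 samples lay within the control range except BMP4 III, just below control III. The sum of the near copies Gstp1 and Gstp2 was 7148 ± 563 in controls, 2448 ± 273 with BMP2 (SD, n = 4 each), and stood at 7063 ± 347 with BMP4 (SD, n = 3). As a share of the sample total, this sum was 0.0335% to 0.0392% in controls and 0.0258% to 0.0285% with BMP4. By share the BMP4 samples lay below the controls, so the BMP4 level of this pair depends on the scaling. Gstt3 was at 1160 to 1410 in controls, 235 to 294 with BMP2 and 1320 to 1500 with BMP4, and Gstt1 was 6.53-fold and Gstt2 3.75-fold lower with BMP2. Gstz1, a step of tyrosine breakdown, was at 764 to 795 in controls, 134 to 182 with BMP2 (-2.31 ± 0.12, limma adjusted p = 4.19e-12) and 760 to 843 with BMP4.

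The alpha class was mixed. Gsta3 was 14.9-fold lower with BMP2 (limma adjusted p = 8.35e-10). With BMP4 it was at 1270 to 1810 against 641 to 1340 in controls, and the difference passed only with replicate numbers as blocks (0.76, limma adjusted p = 0.00921). Gsta4, which conjugates aldehydes from oxidised lipids, was at 3340, 3180, 5300 and 4720 in controls and 16500, 16500 and 20200 with BMP4, a 4.29-fold rise (limma adjusted p = 4.62e-07). It was also called higher with BMP2, but that call was lost under quantile normalization, with the same total and without control II or control III. Gsta1 was at 7640, 7380, 17100 and 15000 in controls, 3990, 3440, 9320 and 8870 with BMP2 and 29700, 30000 and 37900 with BMP4. The BMP2 samples overlapped with the controls, and the BMP4 call (1.56, limma adjusted p = 0.00691) was lost under quantile normalization (0.90, adjusted p = 0.115). Summed over Gsta1 and its copies, the level was 16820 ± 7014 in controls, 8592 ± 3974 with BMP2 (SD, n = 4 each), and reached 43360 ± 6496 with BMP4 (SD, n = 3). Gstk1, found in mitochondria and peroxisomes, was higher with both ligands: it was at 124, 134, 222 and 168 in controls, 553, 404, 456 and 368 with BMP2 and 754, 832 and 702 with BMP4 (limma adjusted p = 3.86e-06 and 8.54e-08). Gsto1 at 6170 to 8060 in controls and 7430 to 8790 with BMP2 did not pass with BMP2.

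Of the 6 sulfotransferases, 4 were lower and 2 higher with BMP2, and 5 were higher with BMP4. Sult1b1, which sulfates phenols and thyroid hormones, was at 802, 777, 1330 and 1390 in controls, 554, 574, 619 and 729 with BMP2 and 8560, 8660 and 7080 with BMP4. Its fall was 1.74-fold and its rise 7.54-fold (limma adjusted p = 0.00338 and 3.19e-09). Sult1c2 was 12.2-fold lower with BMP2 and 3.63-fold higher with BMP4, and Sult6b2 8.47-fold lower and 4.58-fold higher. Sult1d1, which sulfates catecholamines, was 1.78-fold lower and 4.27-fold higher. Under the same total the BMP2 differences of Sult1b1 and Sult1d1 were -1.21 and -1.31 in place of -0.75 and -0.85 on the log2 scale. Sult2b1, which sulfates cholesterol and other sterols, rose with both: it was at 147, 164, 229 and 246 in controls, 368, 345, 381 and 535 with BMP2 and 1930, 1810 and 2320 with BMP4. The groups did not overlap, and the log2 differences were 1.06 ± 0.20 and 3.38 ± 0.21 (limma adjusted p = 7.68e-05 and 3.03e-10). With the same total the first was 0.60.

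A few P450s stood against the rest. Of these Cyp21a1, Cyp4a29, Cyp11a1 and Cyp1b1 had means under 10 in controls and passed the filter through treated groups, where they had to be higher, so their values are given as a description. Cyp21a1 (ENSMUSG00000024365), the steroid hydroxylase of corticosteroid synthesis, was at 0 in all 4 controls, at 150, 196, 92.9 and 283 with BMP2, 44.8, 179 and 205 with BMP5 and 98.9, 115 and 167 with BMP7. With BMP4 it was at 0, 1.14 and 2.39 and with BMP3 at 0, 0 and 0.875. Every BMP2, BMP5 and BMP7 sample lay above every sample of the other groups. Against a floor of 3 reads per library, its mean was at least 70.1-fold higher with BMP2, at least 55.5-fold with BMP5 and at least 49.3-fold with BMP7. Of its transcript windows 11.5% also occur in another gene, the pseudogene Cyp21a2-ps. Cyp4a29 was at 3.55, 1.66, 1.77 and 4.96 in controls and at 236, 203, 233 and 225 with BMP2, 75.1-fold higher, and at 14.2 to 33.5 with BMP4, BMP5 or BMP7.

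Cyp11a1, which cuts the side chain of cholesterol, was at 2.48 to 9.76 in controls and at 42, 43.5, 31.8 and 21.5 with BMP2. It was at 0, 2.28 and 0 with BMP4, within the floor. Cyp1b1, an Ahr target, was at 1.78, 4.15, 11.5 and 2.48 in controls and 52.2, 74.2, 422 and 135 with BMP2, with BMP2 IV far above the others. BMP5 (44, 23.2 and 62) and BMP7 (29, 21.9 and 95.3) also lay above the controls. In the mesenchymal samples Cyp1b1 was at 137 TPM (fresh) and 257 TPM (immortalised). The sum of the 4 of 6 listed mesenchymal markers found in the BMP table was 0.826 to 25.7 normalized counts in controls, 33.3 to 54.2 with BMP2, 8.07 to 20.9 with BMP5 and 15.5 to 18.3 with BMP7, with 1 of the 4 at 0 in every control, BMP5 and BMP7 sample. The BMP2 sums lay above the controls, and those with BMP5 and BMP7 lay within the control range. The median, however, was 2.99 in controls, 16.6 with BMP5 and 17.2 with BMP7. With Tgfb the sum of the 6 markers was 0.507 to 0.807 TPM against 0.0144 to 0.0183 TPM in its controls. None of these markers passed the filter on low values. Their part in the result was not tested. Cyp2w1 was at 7.99 to 22.2 in controls, 47.4, 50.2 and 104 with BMP4, 61, 83.4 and 66.6 with BMP5 and 108, 90.2 and 67.4 with BMP7, and its BMP2 samples at 6.81 to 38 overlapped with controls. With BMP4 the sterol hydroxylase genes Cyp39a1 (202 to 289 in controls, 141 to 164 with BMP4) and Cyp27a1 (43.1 to 94.2, and 17.1 to 32.3) and the orphan P450 Cyp20a1 (449 to 576, and 265 to 346) were lower, by 0.73, 1.21 and 0.68 on the log2 scale (limma adjusted p = 7.32e-05, 0.001 and 2.1e-05).

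BMP2 and BMP4 were also compared directly with each other, in the fit of all 20 samples. BMP2 samples were lower in 64 members and higher in 6 of 77, against 33.4% of all genes in each direction, and the median log2 difference was -3.02 where that of all genes was 0.01. All 12 Ugt genes, 20 of 21 Gst genes, 27 of 38 P450s and 5 of 6 Sult genes were lower with BMP2 than with BMP4. Gstm3 had a mean of 125 ± 79.7 in BMP2 samples (SD, n = 4) against 14700 ± 2972 in BMP4 samples (SD, n = 3), 117-fold lower with BMP2 (limma adjusted p = 3.4e-10). Ugt2b36 was 91.1-fold lower (157-fold without BMP2 VI), Cyp2b10 80-fold (135-fold), Ugt2a3 78.2-fold (131.5-fold) and Ugt2b5 74.2-fold (139-fold), and their order changed without that sample. Members at which the ligands stood closer were Gsto1 (8095 ± 666 against 10400 ± 1217, limma adjusted p = 0.0257, and 0.0511 to 0.125 without BMP2 II, BMP2 IV, BMP4 II or BMP4 VI), Gstk1 (1.71-fold lower with BMP2, adjusted p = 0.00506) and Cyp4f13 (1.98-fold lower). The 6 members that were higher with BMP2 were Cyp21a1 (at least 51.2-fold), Cyp1b1 (19.6-fold, 10-fold without BMP2 IV and 58.5-fold without BMP4 VI), Cyp4a29 (9.86-fold), Cyp11a1 (at least 9.85-fold), Cyp20a1 (1.83-fold) and Cyp39a1 (1.39-fold). The first 4 of these entered through a treated group, as stated above.

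**Figure D5:**
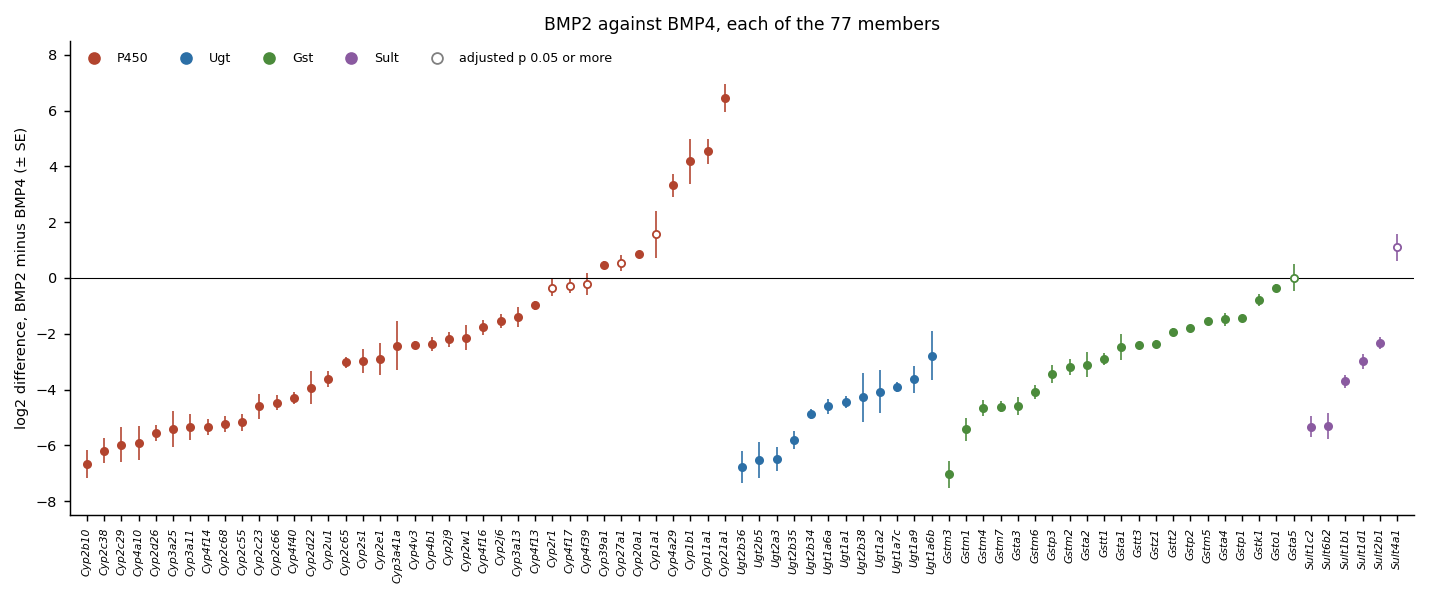
Log2 difference BMP2 minus BMP4 of each member with its standard error, on the log2(normalized count + 1) scale, with open symbols where the adjusted p was 0.05 or more. Of the 77 members, 64 lie below 0 and pass, and 6 lie above 0 and pass, led by Cyp21a1, Cyp11a1 and Cyp1b1.

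With BMP5 and BMP7 the called members were mostly lower, and the member medians were -0.72 and -0.77 (log2). Cyp2d26 was at 422, 343 and 568 with BMP5 and 209, 377 and 471 with BMP7, against 932 to 1880 in controls, without overlap (limma adjusted p = 0.000538 and 5.04e-05). Cyp3a11 was 4.80-fold lower with BMP5 and 4.604-fold lower with BMP7, Cyp4f14 2.84-fold and 2.71-fold, and Cyp2u1 4.603-fold and 6.73-fold. Cyp2c38 was 9.17-fold lower with BMP5 and 13.7-fold lower with BMP7, at 3.63 to 12.8 normalized counts against 32.9 to 109. Of the 12 Ugt genes, 8 were lower with each ligand. Ugt2b34 was at 6720, 3840 and 5290 with BMP5 and 5370, 5680 and 6340 with BMP7, below every control, and Ugt1a1 was 2.64-fold and 2.14-fold lower. Among Gst genes 12 were lower with BMP5 and 13 with BMP7. Gstm3 was 5.52-fold and 4.67-fold lower (7.38-fold with BMP7 without BMP7 VI), Gstm7 2.68-fold and 2.97-fold, Gstt3 1.72-fold and 1.99-fold and Gstp1 1.71-fold and 1.87-fold.

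Cyp2b10 was at 1680, 1080 and 2590 with BMP5 and 1360, 1970 and 3590 with BMP7, and passed with neither. With replicate numbers as blocks the BMP5 difference was -1.31 with a limma adjusted p of 0.0147. Gsta1, Ugt1a6a and Ugt2b5 likewise passed with blocks (limma adjusted p = 0.0283, 0.0229 and 0.0165 with BMP5, and 0.0146, 0.0296 and 0.0447 with BMP7). With BMP7, Gstk1 and Sult2b1 were higher under blocks only (0.59 and 0.61 on the log2 scale, limma adjusted p = 0.0167 and 0.000629). Several BMP5 calls were lost without BMP5 III, among them Ugt2b36 (limma adjusted p = 0.063), Cyp2c55 (0.0642), Cyp4v3 (0.0535) and Ugt1a9 (0.0964), and those of Sult1c2 were lost without BMP5 VI (0.077) or BMP7 VI (0.0885). BMP5 and BMP7 differed from each other in 0 of 77 members by limma, where 0.0136% of all genes passed, 2 members had an unadjusted p under 0.05, and the member differences ran from -0.49 to 1.15 with a median of 0.03.

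With BMP3 no member passed. Their median log2 difference was -0.12 (0.01 over all genes), 1 of the 77 had an unadjusted p under 0.05, and edgeR and DESeq2 also called 0 members. Ugt2b34 was at 10900, 9840 and 12200 with BMP3, within the control range, and Cyp2b10 at 2470, 2660 and 5160 against 2660, 2740 and 5590 in the same-numbered controls.

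With Tgfb, in a separate table with its own controls, these enzymes were mostly lower. Cyp2b10 was at 149, 151 and 186 TPM in controls and 15.6, 10.8 and 12 TPM with Tgfb (12.7-fold lower, limma adjusted p = 1.28e-05). Cyp2c29 was 21.3-fold, Cyp3a11 20.3-fold and Cyp2d26 7.83-fold lower. Gstm3 fell from 296, 304 and 414 TPM to 9.24, 8.5 and 16 TPM, which is 30.1-fold (limma adjusted p = 2.31e-05), and the 7 mu class genes were all lower. All 9 Ugt genes tested were lower, among them Ugt2b36 by 16.7-fold, Ugt2a3 by 12.4-fold and Ugt1a1 by 4.49-fold. In each of these genes the treated and untreated samples were well apart.

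Members that were higher with Tgfb were few. Cyp21a1 was listed at 0 in the 3 controls and was at 13.2, 10.6 and 14.4 TPM with Tgfb. Cyp2w1 was at 0.383 to 0.716 TPM in controls and 4.84 to 7.22 TPM with Tgfb, and Cyp4a29 at 0.0301 to 0.151 and 1.48 to 2.97 TPM. Cyp21a1, Cyp2w1 and Cyp4a29 had control means under the filter of 1 TPM and passed it through the Tgfb samples. They had to be higher with Tgfb, so their values are a description. The 10 members called higher include them. Gstk1 was 2.21-fold higher (limma adjusted p = 0.000335) and Cyp3a13 1.90-fold higher (adjusted p = 0.00779).

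The Tgfb calls were set beside those of the BMP table, which has other control samples. Of the 49 members lower with BMP2 and tested in both tables, 44 (89.8%) were lower with Tgfb. Among all genes this was 68.1% of 4973. These were also all 44 of the members that were lower with Tgfb. The 5 others were Cyp27a1 and Cyp4f16, higher with Tgfb, and Cyp2d22, Cyp2j9 and Sult1b1, which did not pass. The BMP2 call of Cyp27a1 was lost under quantile normalization (limma adjusted p = 0.192), with no filter (0.0532) and without control IV, control VI, BMP2 IV or BMP2 VI (0.053 to 0.128). Its Tgfb call was lost with no filter (0.0591) and without untreated sample II or III or Tgfb sample I or III (0.0514 to 0.0671). The BMP2 call of Cyp4f16 was lost without control VI, BMP2 II, BMP2 III or BMP2 IV (limma adjusted p = 0.0502 to 0.0829). Of 43 members higher with BMP4, 29 (67.4%) were lower and 7 (16.3%) higher with Tgfb, where 18.4% of the 4413 genes higher with BMP4 were lower and 47.4% higher. Of 32 members lower with BMP5, 32 were lower with Tgfb (93.9% among all genes), and of 35 lower with BMP7, 33 were (94.3%, and 88.1% among all genes).

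The receptors and factors that control these genes were taken from a fixed list of 14. With BMP4, 13 were higher and 0 lower, where 33.7% of all genes were higher. With BMP2, 2 were higher and 7 lower, where 36.8% and 38.4% of all genes were, so the count of lower genes was not far from the background. Nr1i3 was at 262 ± 89.9 in controls, 30.8 ± 18.6 with BMP2 (SD, n = 4 each), and reached 1087 ± 122 with BMP4 (SD, n = 3). Its log2 differences were -3.16 and 2.10 (limma adjusted p = 2.65e-07 and 0.00013). Nr1i2 differed by -1.11 and 1.46, Ppara by -2.84 and 2.07, and Vdr, the vitamin D receptor, by -3.48 and 1.49. Under quantile normalization the Vdr difference with BMP4 was 0.88. Ahr, the sensor of aromatic compounds, was higher with both, at 739 ± 83.6 in controls, 2718 ± 376 with BMP2 and 1243 ± 147 with BMP4 (limma adjusted p = 1.1e-10 and 7.41e-05). With the same total its BMP4 difference was 0.35 in place of 0.75. Its target Cyp1a1 was at 7.43 to 38.1 in controls, 16 to 38.3 with BMP4 and 15.9, 44.8, 259 and 110 with BMP2, a spread in which BMP2 II overlapped with the controls.

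The reductase Por, which feeds electrons to the microsomal P450s, was higher with both ligands, at 3078 ± 716 in controls, 10150 ± 2390 with BMP2 and 10800 ± 954 with BMP4 (limma adjusted p = 3.18e-07 and 7.1e-07). Of its list of 6 electron donors, 2 were higher and 4 lower with BMP2, and 5 were higher with BMP4. The 3 genes for UDP-glucuronic acid were all higher with BMP4 and 2 of them with BMP2. Ugdh, which makes UDP-glucuronic acid, was 10580 ± 1742 in controls, 11900 ± 1339 with BMP2 and 31770 ± 4922 with BMP4 (1.59, and 0.91 under quantile normalization). For the sulfate donor, 3 of 5 genes were higher and 1 lower with BMP4, and 1 higher and 3 lower with BMP2. For glutathione, 4 of 5 were higher with BMP4, and 2 higher and 2 lower with BMP2. In all these short lists the BMP2 counts are read beside the 36.8% higher and 38.4% lower among all genes. The BMP4 counts are read beside 33.7% higher and 31.4% lower.

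A further list held other enzymes of the first phase. Of 27 tested, 21 were lower and 1 higher with BMP2 (median -2.71), 21 were higher and 1 lower with BMP4 (median 1.5), and 20 of 24 were lower with Tgfb (median -1.74). Among all genes, 38.4% were lower and 36.8% higher with BMP2 (median -0.03), and 33.7% higher and 31.4% lower with BMP4 (median 0.04). With Tgfb, 29.3% of all genes were lower and 27.4% higher (median -0.04). Adh1, an alcohol dehydrogenase, was 9895 ± 2303 in controls, 1310 ± 480 with BMP2 and 40300 ± 4392 with BMP4. The epoxide hydrolase Ephx1 was 1610 ± 328, 84.2 ± 34.6 and 3323 ± 659, and the carboxylesterase Ces2e 4030 ± 922, 430 ± 204 and 13730 ± 2082. These 6 differences had limma adjusted p-values between 5.78e-12 and 0.00096. Under quantile normalization the Adh1 difference with BMP4 was 1.34 in place of 2.05, and with the same total that of Ephx1 was 0.65 in place of 1.05. Efflux pumps were mixed: of 8, 3 were higher and 3 lower with BMP2, near the share among all genes and so no result about the pumps, and 5 higher and 3 lower with BMP4, against 33.7% and 31.4% of all genes. Abcg2 differed by -1.08 and 1.66 (log2), Abcc2 by -1.04 and 2.40, and Abcb1a was 2762 ± 505 in controls, 2552 ± 554 with BMP2 and 12400 ± 1411 with BMP4.

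Markers of intestinal cell types changed in the same samples. Their counts are read beside the shares of all genes called higher and lower. These were 36.8% and 38.4% with BMP2, 33.7% and 31.4% with BMP4, and 27.4% and 29.3% with Tgfb. With BMP5 they were 16.5% and 9.87%, and with BMP7 19.2% and 13.2%. The 8 enterocyte markers were all higher with BMP4, and their sum had a median of 452500 (407400 to 478300) normalized counts against 75910 (56730 to 102600) in controls. With BMP2 the enterocyte sum was 66880 (54090 to 119200), with 2 markers higher and 3 lower, so it overlapped with controls. It was 52250 (49260 to 89220) with BMP5 and 61580 (47400 to 90360) with BMP7. With Tgfb, 4 of the 8 were higher and 4 lower, and the sum was 3722 (3512 to 4425) TPM against 5051 (4501 to 6380). The 5 stem cell markers were all lower with BMP2, BMP4 and Tgfb, and their sum fell from a median of 104600 in controls to 1398 with BMP2 and 5482 with BMP4. With BMP5 (27410 to 77170) and BMP7 (24230 to 28510) the stem cell sum also lay below the control range of 99820 to 124500, with 1 and 3 of the 5 markers lower. Of the 5 goblet cell markers 3 were higher with BMP4, 2 were higher and 2 lower with BMP2, and 3 were lower with Tgfb. The sum over all 5 had a median of 106700 with BMP4 against 30090 in controls. The 3 hepatocyte markers were at 186 to 247 normalized counts in controls, 57.7 to 151 with BMP2 and 222 to 679 with BMP4. In the Paneth list 5 of 5 markers were lower with BMP2. The tuft cell sum was 363 to 430 normalized counts in controls and above that range in each treated group but BMP3, at 1475 to 2314 with BMP2 (3 of 4 markers higher), 774 to 781 with BMP4, 546 to 627 with BMP5 and 619 to 762 with BMP7, and it was 10.7 to 13.7 TPM with Tgfb against 6.28 to 9.53 TPM. Of the 5 enteroendocrine markers 3 were higher and 1 lower with BMP2, and their sum of 7567 to 18100 overlapped with 6235 to 9024 in controls. In the immune list only Itgam was tested, and it was lower with BMP2 and higher with BMP4. In the endothelial list only Pecam1 was, and it was higher with both. The part of these cell types in the enzyme changes was not tested.

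Promoters were searched for 4 motifs on both strands, from 250 bases before to 50 after the gene start, in the RefSeq table of build GRCm38.p6, which held 80 promoters of 65 members. CAAAGTCCA, an element bound by Hnf4 receptors, occurred in 5 member promoters (6.25%) and in 0.479% of 32544 promoters in all. Cyp2c65 and Cyp2c68 on chr19 are related genes, as are Cyp3a11 and Cyp3a41a on chr5, so these matches are not independent of each other. GCGTG, the core of the Ahr element, was in 28.7% of member promoters and 32.6% of all. TGACNNNGC, the core of the antioxidant element, was in 10% and 12.4%, and GGCGCC, a Smad element, in 2.5% and 11.9%. A match is a description of these windows and not a binding site. The 4 upstream matches to CAAAGTCCA are shown with 30 bases on either side, in the direction of the gene, with the motif in capitals. They start 116 bases before the gene start in Cyp2c65, 77 in Cyp2c68, 109 in Cyp3a11 and 95 in Cyp3a41a. The fifth match, in Sult1b1, lies after the gene start.
Cyp2c65 (chr19:39060860-39060928, plus strand): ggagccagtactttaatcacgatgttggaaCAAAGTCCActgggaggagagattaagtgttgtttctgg
Cyp2c68 (chr19:39741140-39741208, minus strand): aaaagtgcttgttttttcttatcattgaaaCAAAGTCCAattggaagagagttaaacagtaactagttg
Cyp3a11 (chr5:145879925-145879993, minus strand): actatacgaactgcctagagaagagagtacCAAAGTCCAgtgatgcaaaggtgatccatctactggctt
Cyp3a41a (chr5:145720193-145720261, minus strand): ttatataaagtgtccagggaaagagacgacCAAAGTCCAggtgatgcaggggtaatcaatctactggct
Hnf4a itself was 17420 ± 1037 in controls, 19920 ± 4245 with BMP2 (SD, n = 4 each), and reached 35300 ± 5456 with BMP4 (SD, n = 3). It passed with BMP4 (1.01, limma adjusted p = 2.43e-06, and 0.39 under quantile normalization) and not with BMP2 (adjusted p = 0.217). Of the 5 genes with a match, Cyp2c65, Cyp2c68, Cyp3a11 and Sult1b1 were higher with BMP4 and lower with BMP2, as given above. Cyp3a41a, which entered through a treated group, was at 2.49 to 5.33 in controls and 34.4, 30.8 and 10.8 with BMP4. Its call was lost under several alternatives, listed in the last paragraph. Among the members 46 of 77 were higher with BMP4, and among all genes 33.7%. The part of Hnf4a in these changes was not tested.

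The 77 members made up 0.102% of TPM in the fresh and 0.104% in the immortalised mesenchymal sample, with 1 sample each and no replicate check. In untreated organoids of the Tgfb table they made up 0.545%. Members were chosen by their level in organoids, so family genes found mainly in mesenchymal cells could be left out. The lower share is therefore set in part by that choice. Of the 77 members, 31 were listed at 0 in both mesenchymal samples and 14 reached 10 TPM in both. Gstp1 (254 TPM fresh, 200 immortalised), Cyp1b1 (137 and 257 TPM), Gstm2 (146 and 94.2 TPM) and Gsto1 (64.8 and 157 TPM) led. Cyp1b1, at 0 to 0.0144 TPM in untreated organoids of the Tgfb table, was the member that stood highest in the immortalised sample. The drug-oxidising genes Cyp2b10, Cyp3a11, Cyp2c29 and Cyp2c66 were listed at 0 in both, as were Gstm3, Gsta1 and Ugt2b34.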

How the data were processed

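RNA was measured by 75-base single-end sequencing of 26 organoid samples and 2 mesenchymal samples. Per the submitters' processing notes, the authors used Trim Galore, Salmon and DESeq2 with the build GRCm39; versions, the strand setting and the annotation release are not given in the sources used here. Libraries came from 2 sequencing runs, per the labels' protocols, which do not assign samples to runs. The deposited BMP table holds a signal value per gene, which by its values is a gene count divided by 1 size factor per sample and given to 3 significant digits. Whole reads could be recovered for 100% of 180721 low values (limit of 20 reads, tolerance 0.02 reads or 0.6%). The deposited Tgfb and mesenchymal tables hold TPM, since every column sums to 1000000.

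Differences were tested with limma 3.58.1 (trend, two-sided) in R 4.3.3 on log2(value + 1), with Benjamini-Hochberg adjustment over all genes and a threshold of 0.05. Fold changes on that scale understate low genes, so folds in the text are ratios of means. The BMP fit held all 20 samples, so that the groups share 1 estimate of the spread, and 14746 genes with a mean of at least 10. The Tgfb fit held 6 samples and 12959 of 55416 genes with a mean of at least 1 TPM. A floor of 3 reads per library bounds folds against groups at or near 0. The fits were tested on simulated data with 200 changed genes. Alternatives were pseudocounts of 0.1 and 5, stricter and no filters, quantile normalization, the same total in every sample, only the 2 groups compared, replicate blocks, each sample left out, and edgeR 4.0.16 and DESeq2 1.42.0 on recovered reads.

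The members and gene lists were chosen with earlier results of these data known. Genes are named where, in a comparison, they passed with a mean of at least 50 (5 TPM) and groups that did not overlap, up to the 10 that rose and the 10 that fell most, with the 2 highest per family in controls, textbook intestinal genes and genes of the pathway lists. Near copies were taken from shared 75-base windows of GENCODE M21 transcripts (10% or more), a limit set after values were seen. Same-numbered samples deviated together from their group means in every pair (r over 0.1) for BMP3, BMP4, BMP5 and BMP7 against control, at 0.158 to 0.262 for BMP5, for example, and not in every pair for BMP2 or Tgfb, so blocked values stand beside results only for the former.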

Additional observations from a re-analysis of the deposited data

Results flagged for a closer look

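In 5 of the 111 groups of 4 samples tested over 56 named members, 1 sample stood apart from the other 3 by more than the critical value of Dixon's test for 4 samples; chance alone flags about 1 in 20 groups. In BMP2 replicate VI, 4 members were high. Gstm1 was at 854 normalized counts there and at 267 to 306 in the other BMP2 samples. Ugt2b5 was at 138 against 24.7 to 37.1, Cyp3a25 at 157 against 21.7 to 37.5, and Cyp4f16 at 949 against 539 to 582. In untreated replicate II, Cyp20a1 was at 576 against 449 to 457 in the other controls.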

How the results depend on the processing

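Leaving out 1 sample at a time, the number of members called was 62 to 65 for BMP2 (66 with all samples), 46 to 54 for BMP4 (51), 28 to 39 for BMP5 (38, with 28 without BMP5 III), 33 to 42 for BMP7 (41), 68 to 70 for BMP2 against BMP4 (70), 49 to 53 for Tgfb (54) and 0 for BMP3 and for BMP5 against BMP7. Each of these counts stayed within 1.5 times of its value under the alternatives run. Of 421 results for single genes, 353 kept direction and side of the threshold in all alternatives that gave a value. In 2 cases the sign turned: Gsto1 with BMP4 was -0.0582 under quantile normalization (limma adjusted p = 0.7305) in place of 0.54, and Cyp4f13 with BMP2 was -0.0189 with the same total (adjusted p = 0.917) in place of 0.44; the cause was not tested. With the replicate block the number called was 69 for BMP2, 55 for BMP4, 48 for BMP5 and 52 for BMP7, and also 73 for BMP2 against BMP4, 60 for Tgfb and 0 for BMP3 and for BMP5 against BMP7. Where the numbers pair the samples, the block also ended the call of Cyp3a41a with BMP4 (adjusted p = 0.05355). That call was lost as well with a pseudocount of 0.1, with no filter on low values and with the same total. Leaving out control III, IV or VI, or BMP4 II or III, ended it too. For BMP2 against control r was 0.195, 0.0182, 0.421 and 0.308 in pairs II, III, IV and VI, so 3 of 4 pairs were over 0.1, and the numbers were taken as not pairing because of pair III. For Tgfb r was 0.00405 to 0.0696. Levels within 3 reads of 0 were at the limit of depth, and depth is unknown for the TPM tables. Examples were Cyp2c38 and Ugt1a2 with BMP2, and Cyp2e1 in BMP2 III, IV and VI.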
